A study of Mus musculus with 18 samples.

Results

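Oxidative phosphorylation is the step of respiration in which mitochondria use electrons from NADH and succinate to make ATP. The genes described here encode the subunits of its 5 complexes. They were taken by a rule on symbols that covers subunit names of the Nduf, Sdh, Uqcr, Cox and Atp5 series. It also covers the 13 protein-coding genes of mitochondrial DNA. Assembly factors with similar names, such as Ndufaf1 and Cox17, fall outside the rule. The rule took 96 of the 35275 genes in the table. Of these, 83 are nuclear: 35 of complex I, 4 of complex II, 8 of complex III, 19 of complex IV, 15 of complex V, and 2 factors, Atp5s and Atp5sl, that carry an Atp5 name and are not built into the complex. Ndufa4 was counted with complex IV, where its protein sits, despite its name.

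The libraries came from C2C12, an established mouse myoblast line, described in the labels as PAX7 NEG. MUNC is a long non-coding RNA of myoblasts, and the study set control cells beside cells that overexpressed its spliced form (MS) or its genomic, unspliced form (MG). Each was sampled in growth medium (GM, 20% FBS, about 80% confluent) and after 3 days in differentiation medium (DM3, 2% horse serum), with 3 labelled biological replicates a group and 18 poly(A) RNA-seq libraries in all. All groups share the parent line. The vector, and whether each line was 1 clone, are not given in the sources used here, and no gene row carries the symbol MUNC, so its overexpression was not checked.

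Complex I takes electrons from NADH, and complex II takes them from succinate. Complex III passes them to cytochrome c and complex IV passes them on to oxygen. Complexes I, III and IV pump protons out of the matrix, and complex V, the ATP synthase, lets them back through a rotating ring and uses the energy to make ATP. All complexes but complex II mix subunits from both genomes, and muscle swaps several complex IV subunits for tissue isoforms as it matures.

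The libraries held 38416702 to 68788327 reads on genes. Values are FPM, reads per gene that the authors scaled by 1 factor per library, so the size of a value depends on gene length, and 3 reads corresponded to at most 0.0757 FPM. The labelled cell state was checked on markers. Myog, the myogenin gene that marks the onset of fusion, was at 0.0683, 0.0177 and 0 FPM in control GM and only 0.192, 0.434 and 0.405 in control DM3, against 226, 52.6 and 41.0 in MS DM3 and 7.89, 14.7 and 6.498 in MG DM3. Myh3, embryonic myosin, was at 0.461, 0.375 and 0.497 in control DM3, 177, 24.2 and 37.9 in MS DM3 and 7.66, 13 and 8.27 in MG DM3. Myog and Myh3 were thus near 0 in the control DM3 libraries, and MS DM3 replicate 1 stood apart with the highest values. Of the myotube list, 7 of 9 genes were in the table. Their summed level was 28 to 41.6 FPM in control GM and 31.1 to 56.5 in control DM3, so other listed genes held most of the control sum. It was 203 to 929 in MS DM3 and 141 to 196 in MG DM3. The 5 myoblast markers were Myod1, Myf5, Pax7, Des and Cdh15. They summed to 128 to 163 FPM in control GM, 229 to 321 in MS GM and 386 to 684 in MG GM. In DM3 they summed to 211 to 288 in control, 329 to 550 in MS and 985 to 1155 in MG. The 5 fibroblast markers summed to 3279 to 14867 FPM, nearly all of it from the collagen genes Col1a1 and Col3a1, while Thy1 stayed at or below 0.0368 FPM, Pdgfra ranged from 6.07 to 27.04 and Dcn from 1.07 to 549.5. The part of these markers in the results below was not tested. The source name of 9 samples calls them myotubes or myoblasts against their titles, and groups were taken from the titles.

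All 13 mitochondrially encoded members were listed at 0 in all 18 libraries: mt-Nd1, mt-Nd2, mt-Nd3, mt-Nd4, mt-Nd4l, mt-Nd5 and mt-Nd6 of complex I, mt-Cytb of complex III, mt-Co1, mt-Co2 and mt-Co3 of complex IV, and mt-Atp6 and mt-Atp8 of complex V. The 13 mitochondrial genes in the table held 0 reads together. mt-Nd1, mt-Nd6, mt-Cytb and mt-Atp8 share 0% of their 50-base words with any other annotated gene, and they were listed at 0 as well. A listed 0 in genes that respiring cells use is no measure of their expression, so the nuclear and mitochondrial sides of the pathway could not be compared. What follows concerns the nuclear members. Of the 83, 79 reached 0.5 FPM in at least 3 libraries and were tested. The other 4 are tissue isoforms of complex IV: Cox4i2 stayed at or below 0.0976 FPM, Cox6b2 at or below 0.0921, Cox8b at or below 0.145, and Cox8c was listed at 0 throughout.

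Per kilobase of transcript, the nuclear members spanned a wide range of levels in control GM. The ATP synthase led. Atp5b, the catalytic beta subunit (GRCm38 chr10:128083273-128090391, plus strand), stood at 1175 ± 40.6 FPM per kb (SD, n = 3), ahead of Atp5g3, 1 of the 3 genes for the same rotating c subunit, at 662 ± 127, and Atp5a1, the alpha subunit, at 472 ± 37.4. Ndufa4 reached 391 ± 66.6 and Cox4i1, the general form of complex IV subunit 4, 297 ± 57.0. Lower levels were those of Ndufv3, an accessory subunit beside the NADH-binding site of complex I, at 20.9 ± 3.84, Ndufb2 at 5.67 ± 1.05, Atp5s at 3.593 ± 1.496 and Atp5sl at 1.232 ± 0.3921. The lowest tested members were tissue isoforms of complex IV, with Cox6a2 at 1.10 ± 0.971, Cox7a1 at 0.829 ± 0.133 and Cox7b2 at 0.0922 ± 0.0837. The spreads of Atp5b and Atp5g3 did not meet, while those of Ndufa4 and Atp5a1 came within 1 SD of each other.

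The start regions of the nuclear members were read from RefSeq (GRCm38.p6) to show the sequence at their starts beside the values. The table matched 69 of the 83, by gene identifier first and otherwise by symbol or synonym. They had 75 windows from 250 bases before to 50 after a start. On either strand, the NRF1 word GCATGCGC was in 10 windows (13.3%, against 2.71% of all 32851 windows and 5.07% of the 12731 windows of tested genes). The YY1 word AAGATGGCG was in 9 (12%, against 1.4% and 2.95%). The ETS word CCGGAAG, bound by the factor that Gabpa encodes, was in 16 (21.3%, against 8.86% and 17.1%), and the ERR word TCAAGGTCA in 2 (2.67%, against 0.423% and 0.267%). The E-box CAGCTG, a word of the MyoD family, was in 6 windows (8%, against 16.3% and 15.6%). A match is a description of letters and shows no binding. Exon-free stretches before 4 starts are printed for genes that the results turn on, 5′ to 3′ on the gene's strand, with matches to these words in capitals. Atp5g3 changed in 2 of the 3 lines, Cox6a1 and Cox7b2 are a general and a tissue subunit of complex IV with unlike patterns, and Ndufv3 moved against most of complex I. The stretches are chr2:73911327-73911576 (minus strand), chr5:115348982-115349129 (minus), chr5:71548206-71548455 (minus) and chr17:31519981-31520114 (plus). In Atp5g3 the capitals are the ERR word read on the other strand. In Cox6a1 they are the NRF1 word on both strands, which overlap because the longer word is its own complement. None of the 5 words was in the other 2.
Atp5g3: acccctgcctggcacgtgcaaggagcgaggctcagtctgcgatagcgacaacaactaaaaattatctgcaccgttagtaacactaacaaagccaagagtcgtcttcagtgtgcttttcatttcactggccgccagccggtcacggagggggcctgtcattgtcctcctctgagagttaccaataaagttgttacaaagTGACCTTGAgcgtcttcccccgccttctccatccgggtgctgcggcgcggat
Cox6a1: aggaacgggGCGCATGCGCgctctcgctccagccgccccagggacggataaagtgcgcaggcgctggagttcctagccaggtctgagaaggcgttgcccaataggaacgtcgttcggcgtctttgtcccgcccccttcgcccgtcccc
Cox7b2: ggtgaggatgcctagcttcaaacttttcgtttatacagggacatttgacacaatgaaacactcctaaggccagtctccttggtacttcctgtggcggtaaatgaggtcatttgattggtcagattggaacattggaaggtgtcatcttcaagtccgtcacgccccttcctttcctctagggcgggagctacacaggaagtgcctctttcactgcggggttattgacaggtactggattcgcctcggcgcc
Ndufv3: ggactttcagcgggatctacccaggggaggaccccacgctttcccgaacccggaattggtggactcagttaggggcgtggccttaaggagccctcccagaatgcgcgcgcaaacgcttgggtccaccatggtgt

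The first question was how the nuclear subunit genes differed between differentiation and growth medium in control cells. Most were lower in DM3. The summed level of the nuclear members was 12423, 10224 and 10772 FPM in the 3 control GM libraries and 8549, 8070 and 8096 in control DM3. The groups did not overlap, and the members' share of all FPM went from 1.213%, 0.9936% and 1.027% to 0.8484%, 0.7882% and 0.8088%. In bulk RNA, fewer cells of a type and less RNA per cell cannot be told apart. With limma on log2(FPM + 1), 42 of the 79 tested members were called lower and 5 higher at an adjusted p under 0.05, where 28.6% of all tested genes were called lower and 29.6% higher. The members' median log2 change was -0.35, against 0.02 for all tested genes, and 67 of 79 lay below 0. For 46 members every DM3 library was below every GM library, against 30.5% of all tested genes. Alternative settings, and fits that left out each of the 18 libraries in turn, were checked for members only. Each member change given below with a log2 value and a call held in all of them, unless its sentence says where it was lost. Counts and lists of called members rest on the main fit alone. The authors' deposited table for the same contrast has 37 members lower and 4 higher of 81, against 21.7% of its genes called lower. Its share of genes called higher is not given here.

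The MS and MG lines were then compared with themselves. In MS cells the sum was 10332, 9116 and 10253 FPM in GM and 7994, 7339 and 6073 in DM3. In MG cells it was 10000, 9692 and 10413 in GM and 8811, 8028 and 7634 in DM3. No DM3 library reached the lowest GM library of its own line. In MS, 42 members were called lower and 2 higher, with 18.4% of all tested genes called lower and 17.2% higher, and the median was -0.39 (all genes -0.01). Leaving out 1 library took the 44 MS calls to 25 without MS GM replicate 1, 23 without MS GM replicate 3 and 21 without MS DM3 replicate 3, and a fit of only these 2 groups left 18. In MG, 27 were called lower and 6 higher, with 25.1% of all tested genes lower and 26.3% higher, and the median was -0.19 (all genes 0.02). Without MG DM3 replicate 3 the 33 MG calls fell to 20, and the lower calls were 14 without that library and 17 without MG DM3 replicate 2.

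**Figure D1:**
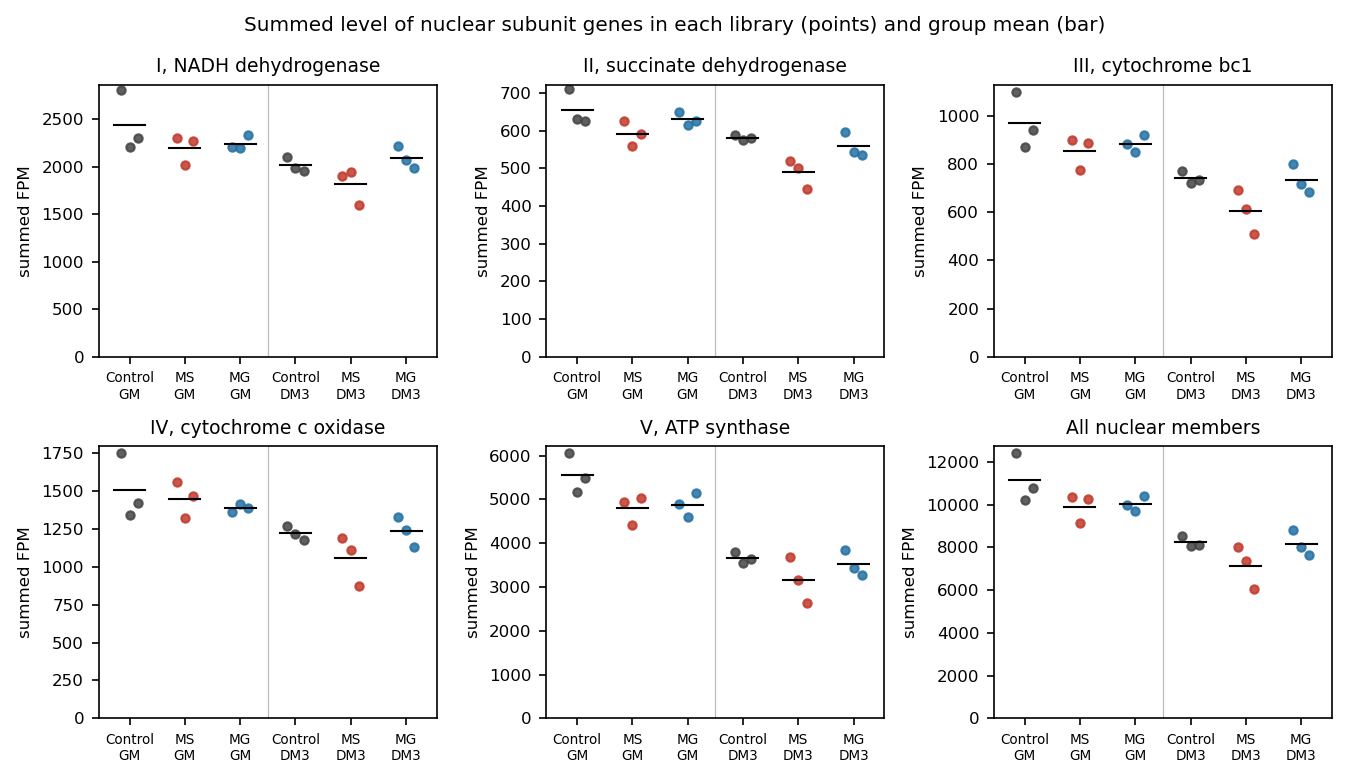
Summed FPM (axes from 0) of the nuclear members of each complex, and of all nuclear members, in the 6 groups of line and medium. Points are the 18 libraries and bars are group means. Complex V holds the largest sum, with a mean of 5566 FPM in control GM and 3663 in control DM3.

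Across the 3 lines, 20 members were called lower in DM3 in every line, against 12.9% of all tested genes. They were 9 complex I genes (Ndufs1, Ndufs8, Ndufa8, Ndufa9, Ndufa10, Ndufb6, Ndufb8, Ndufb10 and Ndufc2), Sdhb and Sdhd of complex II, Uqcrc1 and Uqcrq of complex III, Ndufa4 of complex IV, and Atp5a1, Atp5b, Atp5c1, Atp5o, Atp5g1 and Atp5j2 of complex V. A further 22 were called lower in 2 lines and 7 in 1. These classes rest on the main fit, and not all of their calls are stable. Every alternative and left-out library kept 29 of 42 lower calls in control, 15 of 42 in MS and 13 of 27 in MG. Ndufv3 was the only member called higher in all 3 lines, and 21 were called in none, among them Sdha, Sdhc, Cox6c, Cox7c and Atp5g2. Apart from the class lower in every line, the shares of all tested genes are not given here. The other class counts thus stand without a comparison. Whether the change of a single gene differed between MS or MG and control was tested by interaction terms. The classes themselves were not compared by a test. For MS 2 members passed (Ndufs8 and Cox6a2, against 14.4% of all tested genes) and for MG 2 (Ndufs8 and Atp5g3, against 8.81%). With the replicate number as a block 11 members passed for MS and 4 for MG, and leaving out 1 library gave 0 to 4 and 0 to 3.

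**Figure D2:**
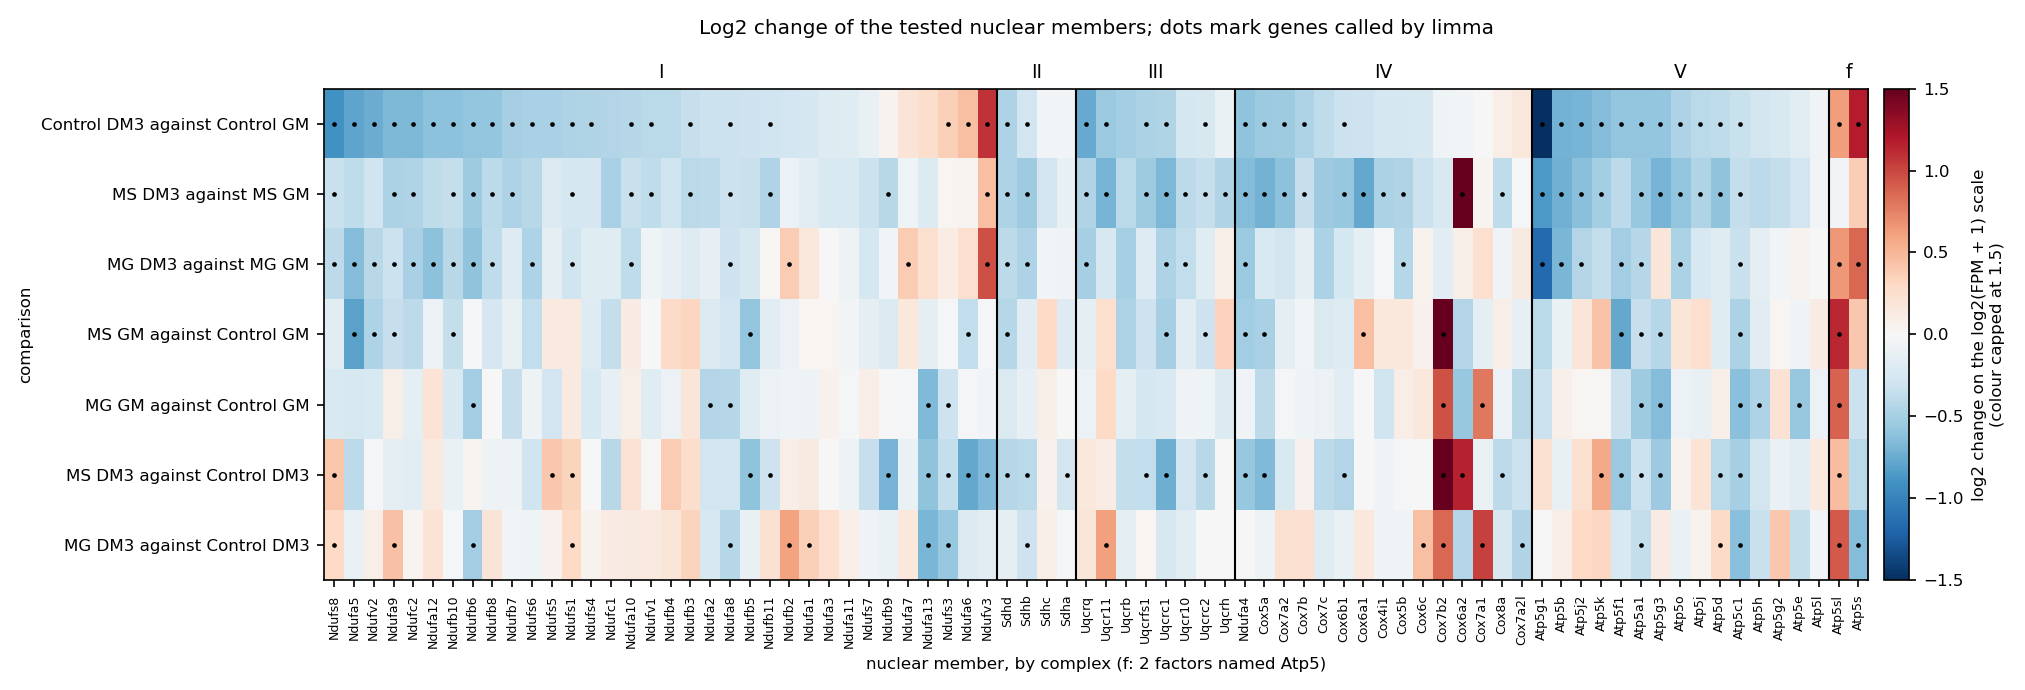
log2 change, on the log2(FPM + 1) scale, of the tested nuclear members (columns, grouped by complex, 1 of 79 not shown, f for the 2 Atp5 factors) in 7 comparisons (rows), with blue for lower, red for higher, colour capped at 1.5 and a dot for each limma call. The 3 differentiation rows at the top are mostly blue, with Ndufv3 red in all 3.

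Complex V, the ATP synthase, had the largest fall in summed level. Its nuclear genes summed to a mean of 5566 ± 446 FPM (SD, n = 3) in control GM and 3663 ± 128 in control DM3. All 15 lay below 0 in the control contrast, from -1.5 to -0.06, with a median of -0.46. Of them 11 were called lower in control cells, 10 in MS cells and 7 in MG cells, and none higher. Among all tested genes 28.6% were called lower in control, 18.4% in MS and 25.1% in MG. These shares also apply to the counts of the complexes below.

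In the catalytic F1 head, 4 of 5 genes were called lower in control cells, 4 in MS and 3 in MG. Atp5b, which holds the catalytic sites, was at 2338, 2191 and 2222 FPM in control GM and 1415, 1342 and 1380 in control DM3. It was at 2143, 1981 and 2202 in MS GM, 1545, 1254 and 1071 in MS DM3, 2391, 2234 and 2505 in MG GM and 1624, 1455 and 1377 in MG DM3. Each DM3 library was below each GM library of its line, with a log2 change of -0.71 ± 0.14 (SE, limma adjusted p = 0.000326) in control, -0.72 ± 0.14 (SE, adjusted p = 0.000727) in MS and -0.68 ± 0.14 (SE, adjusted p = 0.000575) in MG. Neither line was called against control for Atp5b in DM3, at a log2 difference of -0.11 ± 0.14 (SE, limma adjusted p = 0.531) for MS and 0.10 ± 0.14 (SE, adjusted p = 0.576) for MG. Atp5b alone made up a mean of 20.3% of the members' sum in control GM and 16.7% in control DM3.

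Atp5a1, the alpha subunit that pairs with beta, was at 1170, 1072 and 1257 FPM in control GM and 775, 724 and 815 in control DM3. The overexpressing lines gave 880, 868 and 998 in MS GM, 685, 631 and 539 in MS DM3, 782, 748 and 897 in MG GM and 654, 568 and 584 in MG DM3. It fell in DM3 with a log2 change of -0.59 ± 0.12 (SE, limma adjusted p = 0.000469) in control, -0.57 ± 0.12 (SE, adjusted p = 0.00163) in MS and -0.42 ± 0.12 (SE, adjusted p = 0.00711) in MG, with no overlap. Unlike Atp5b, it was already lower in GM in both lines, at a log2 difference of -0.53 ± 0.12 (SE, limma adjusted p = 0.00329) for MG, a call lost under quantile normalization, and -0.35 ± 0.12 (SE, adjusted p = 0.0308) for MS, a call lost under 5 alternatives and without control GM replicate 1, control GM replicate 3, MS GM replicate 1 or MS GM replicate 2 (adjusted p up to 0.11). Atp5c1, the gamma shaft that turns inside the head, was at 391.8, 332 and 309 FPM in control GM and 278, 275 and 264 in control DM3. MS and MG libraries held 266, 228 and 248.8 in MS GM, 219.9, 196 and 164 in MS DM3, 228, 212 and 226 in MG GM and 197, 176 and 158 in MG DM3. Its clearest difference was between lines: in DM3 it was lower than control with a log2 difference of -0.50 ± 0.12 (SE, limma adjusted p = 0.0026) in MS and with -0.63 ± 0.12 (SE, adjusted p = 0.000446) in MG, and in GM with -0.63 ± 0.12 (SE, adjusted p = 0.000845) in MG. Atp5d, the delta subunit at the foot of the shaft, was at 219, 190.2 and 216 FPM in control GM and 154, 152 and 174 in control DM3. Its level was 169.9, 170.1 and 213 in MS GM, 131, 121 and 109 in MS DM3, 197, 226 and 245 in MG GM and 203, 185 and 199.6 in MG DM3. MS DM3 was the low group, below MG DM3 with a log2 difference of -0.70 ± 0.11 (SE, limma adjusted p = 9.81e-05) and below control DM3 with -0.41 ± 0.11 (SE, adjusted p = 0.00838), with no overlap. MG DM3 was above control DM3 with a log2 difference of 0.29 ± 0.11 (SE, limma adjusted p = 0.049), a call lost under no filter and in 11 of the 18 fits that left out 1 library (adjusted p up to 0.15). Atp5e, the epsilon subunit, was at 89.8, 55.7 and 60.9 FPM in control GM and 67.7, 58.4 and 54.1 in control DM3 and was not called in any differentiation contrast. In the other lines it stood at 73.5, 56.5 and 66.2 in MS GM, 60.3, 58.0 and 42.7 in MS DM3, 44.7, 41.4 and 49.1 in MG GM and 51.3, 44.9 and 43.9 in MG DM3. MG GM was below MS GM, at a log2 difference of 0.52 ± 0.17 (SE, limma adjusted p = 0.0235) for MS against MG, a call lost without MS GM replicate 1, MS GM replicate 3, MG GM replicate 1 or MG GM replicate 2 (adjusted p up to 0.093).

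In the peripheral stalk, which holds the head still, Atp5f1 (subunit b) was at 471, 350.5 and 316 FPM in control GM and 280, 250.7 and 214 in control DM3. With MUNC overexpressed the values were 256, 199.6 and 208 in MS GM, 215, 169 and 129.7 in MS DM3, 341, 287 and 282 in MG GM and 254, 210 and 173 in MG DM3. Control GM replicate 1 was the highest of all, and MS GM lay wholly below control GM, at a log2 difference of -0.76 ± 0.19 (SE, limma adjusted p = 0.00567). Atp5f1 shares 14.3% of its 50-base words with other genes and is uncertain to that extent.

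The c ring, the turning part of the membrane motor, is built from 1 mature protein that 3 genes encode. Atp5g1 (chr11:96068852-96075670, minus strand) was at 105, 76.5 and 102 FPM in control GM and 35.5, 30.3 and 31.9 in control DM3. It was at 72.1, 56.9 and 85.1 in MS GM, 47.0, 39.5 and 30.2 in MS DM3, 67.2, 67.7 and 91.8 in MG GM and 33.5, 32.7 and 32.0 in MG DM3. Every DM3 library was below every GM library of its line. It had the lowest change of any member in control, a log2 change of -1.5 ± 0.18 (SE, limma adjusted p = 3.58e-06), and fell with -0.86 ± 0.18 (SE, adjusted p = 0.0014) in MS and -1.17 ± 0.18 (SE, adjusted p = 5.11e-05) in MG. In the authors' deposited table the control contrast reads -1.57 ± 0.18 with an adjusted p of 1.08e-16. About 11.1% of its 50-base words occur in other genes.

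Atp5g3 (chr2:73908447-73911326, minus strand), whose start region is printed above, was at 574, 394 and 459 FPM in control GM and 347, 299.6 and 295 in control DM3. The overexpressing lines gave 384, 301 and 365 in MS GM, 263, 211 and 176 in MS DM3, 318, 276 and 309 in MG GM and 373, 336 and 315 in MG DM3. It fell in control, with a log2 change of -0.58 ± 0.15 (SE, limma adjusted p = 0.00401), and in MS, with -0.70 ± 0.15 (SE, adjusted p = 0.00243), without overlap. In MG the groups overlapped and the value was a log2 change of 0.18 ± 0.15 (SE, limma adjusted p = 0.347). The difference between the MG and control changes, tested as an interaction, was a log2 difference of 0.77 ± 0.22 (SE, adjusted p = 0.0369), a call lost under no filter and in 10 of the 18 fits that left out 1 library (adjusted p up to 0.1). MG GM started lower than control GM, at a log2 difference of -0.64 ± 0.15 (SE, limma adjusted p = 0.00524). In DM3 it was MS that lay lower, at -0.55 ± 0.15 (SE, adjusted p = 0.00893) against control, a call lost without MS DM3 replicate 3 (adjusted p up to 0.052), and -0.67 ± 0.15 (SE, adjusted p = 0.00219) against MG. Atp5g2, the third c-ring gene, was at 32.6, 32.2 and 42.1 FPM in control GM and 25.1, 30.4 and 35.1 in control DM3, and its groups overlapped. MS and MG libraries held 31.6, 31.5 and 46.9 in MS GM, 26.1, 29.8 and 27.9 in MS DM3, 33.0, 40.0 and 52.7 in MG GM and 35.6, 41.5 and 42.7 in MG DM3. No differentiation contrast was called, and 38.3% of its words are shared with other genes.

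**Figure D3:**
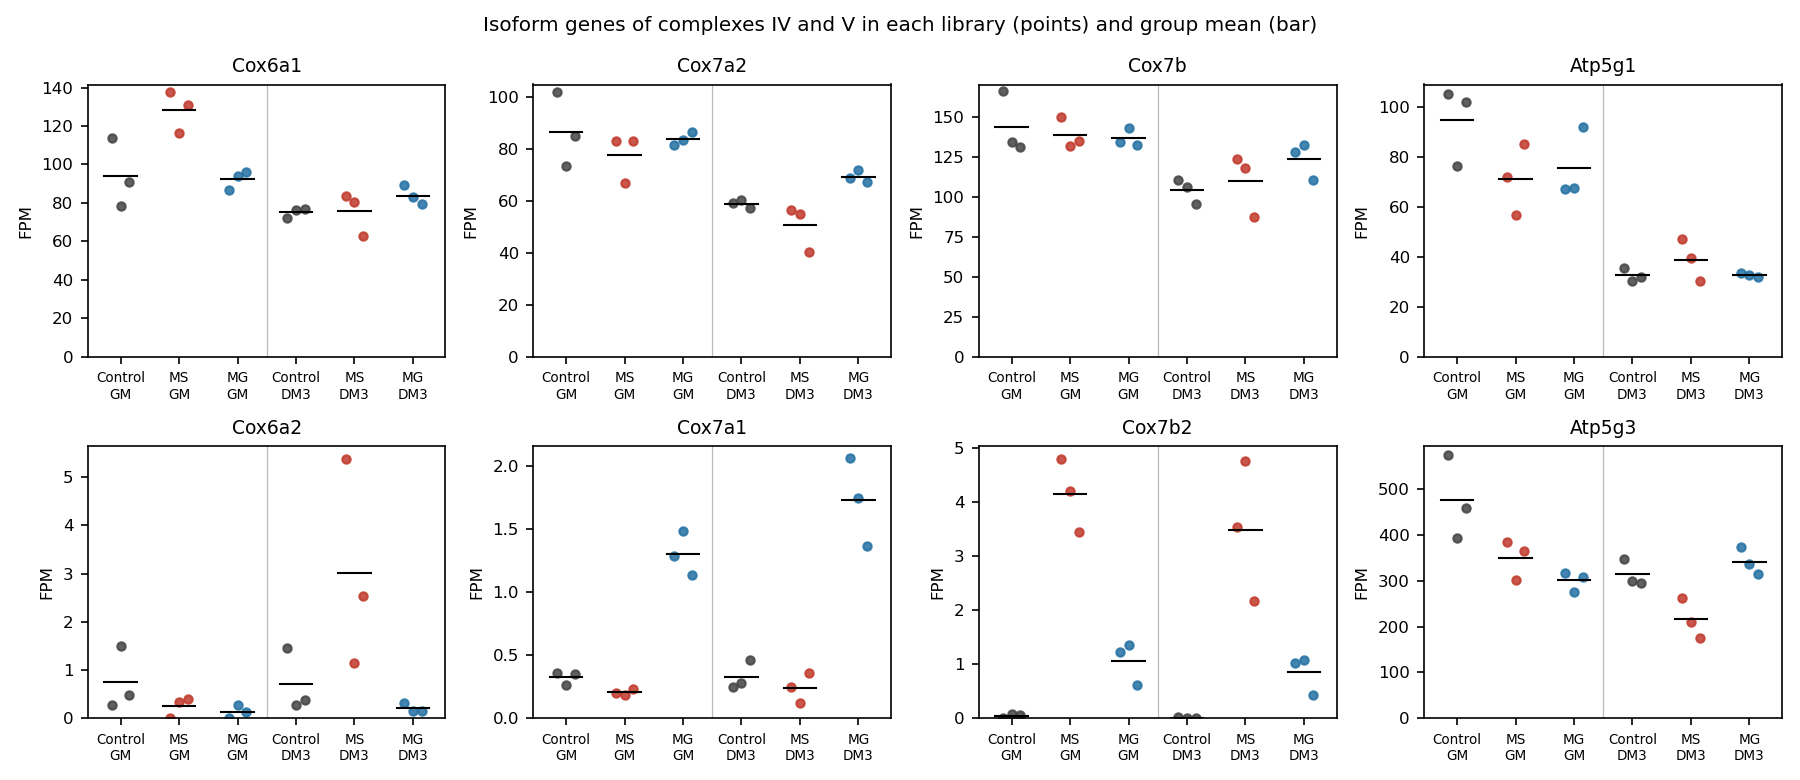
FPM in each library of 8 subunit genes that come in alternative forms (linear axes from 0, 1 panel per gene, 6 groups with 3 points each and the group mean as a bar). Cox7b2 is at or near 0 in control libraries and between 2.17 and 4.79 FPM in MS libraries, and Atp5g1 is lower in DM3 than in GM in every line.

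The 2 factors named for ATP synthase were higher in DM3 in control and MG cells. Atp5s, known as coupling factor B, was at 5.72, 7.75 and 3.15 FPM in control GM and 12.5, 14.2 and 12.8 in control DM3. Its level was 8.56, 8.60 and 5.21 in MS GM, 7.97, 11.3 and 10.2 in MS DM3, 4.22, 5.08 and 2.899 in MG GM and 9.02, 7.92 and 7.26 in MG DM3. All control DM3 libraries lay above all control GM libraries, and it rose with a log2 change of 1.18 ± 0.24 (SE, limma adjusted p = 0.000614) in control and 0.86 ± 0.24 (SE, adjusted p = 0.00753) in MG, against 0.37 ± 0.24 (SE, adjusted p = 0.247) in MS. Atp5sl, which despite its name acts in building complex I, was at 2.85, 2.05 and 3.92 FPM in control GM and 5.26, 4.91 and 4.75 in control DM3. In the other lines it stood at 6.51, 7.37 and 8.68 in MS GM, 6.32, 7.95 and 7.50 in MS DM3, 5.37, 6.23 and 7.00 in MG GM and 9.85, 9.49 and 11.6 in MG DM3. Every MS and MG library in GM was above every control GM library, with a log2 difference of 1.13 ± 0.16 (SE, limma adjusted p = 6.9e-05) for MS and 0.89 ± 0.16 (SE, adjusted p = 0.000725) for MG. It rose in control DM3 with a log2 change of 0.63 ± 0.16 (SE, limma adjusted p = 0.00377), a call lost under quantile normalization, and in MG with 0.65 ± 0.16 (SE, adjusted p = 0.00338), and was -0.04 ± 0.16 (SE, adjusted p = 0.867) in MS. Both share none of their 50-base words with other genes.

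Complex I, the entry point for NADH, had a mixed pattern. Its 35 nuclear genes summed to a mean of 2434 ± 324 FPM (SD, n = 3) in control GM and 2013 ± 81.3 in control DM3. In control cells 19 were called lower and 3 higher, in MS 14 and 1, and in MG 13 and 4, with medians of -0.40, -0.33 and -0.19. Among all tested genes 29.6% were called higher in control, 17.2% in MS and 26.3% in MG. The 7 core subunits, which carry the redox centres, gave 4 lower and 1 higher in control. The 28 accessory subunits gave 15 and 2.

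Ndufs8, a core subunit with iron-sulfur clusters on the path to ubiquinone (chr19:3908863-3912774, minus strand), was at 79.2, 63.2 and 63.9 FPM in control GM and 40.0, 35.2 and 32.7 in control DM3. With MUNC overexpressed the values were 61.3, 57.7 and 64.7 in MS GM, 52.1, 51.0 and 42.5 in MS DM3, 55.3, 56.5 and 63.6 in MG GM and 45.3, 44.3 and 43.4 in MG DM3. GM libraries were above DM3 libraries in each line, and the control DM3 libraries were the lowest group. Its level fell with a log2 change of -0.91 ± 0.11 (SE, limma adjusted p = 5e-06) in control, the lowest in complex I, and the authors' deposited table has -0.96 ± 0.17 for it. The gene fell with a log2 change of -0.39 ± 0.11 (SE, limma adjusted p = 0.00803) in MG and -0.33 ± 0.11 (SE, adjusted p = 0.029) in MS, a call lost under a fit of only the compared groups and without MS GM replicate 1, MS GM replicate 3 or MS DM3 replicate 3 (adjusted p up to 0.14). The difference from the control change was tested as an interaction, at a log2 difference of 0.58 ± 0.16 (SE, limma adjusted p = 0.0232) for MS, a call lost under a fit of only the compared groups and in 5 of the 18 fits that left out 1 library (adjusted p up to 0.067), and 0.52 ± 0.16 (SE, adjusted p = 0.0483) for MG, a call lost under 8 alternatives and in 13 of the 18 fits that left out 1 library (adjusted p up to 0.12). In DM3 alone MS lay above control with a log2 difference of 0.42 ± 0.11 (SE, limma adjusted p = 0.00598).

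Ndufv3 (chr17:31520115-31531331, plus strand) was at 36.5, 36.7 and 26.03 FPM in control GM and 71.3, 68.9 and 71.1 in control DM3. It was at 31.6, 37.9 and 27.5 in MS GM, 45.0, 48.8 and 39.4 in MS DM3, 31.9, 40.7 and 24.5 in MG GM and 65.5, 58.2 and 65.3 in MG DM3. Control DM3 values were 68.9 to 71.3 FPM, above all 9 GM libraries of the study. It rose with a log2 change of 1.09 ± 0.17 (SE, limma adjusted p = 4.57e-05) in control, 2.12-fold, and with 0.97 ± 0.17 (SE, adjusted p = 0.00018) in MG, 1.95-fold. In MS it rose with a log2 change of 0.45 ± 0.17 (SE, limma adjusted p = 0.0459), a call lost under 4 alternatives and in 11 of the 18 fits that left out 1 library (adjusted p up to 0.19), and MS DM3 stood below control DM3 with a log2 difference of -0.66 ± 0.17 (SE, adjusted p = 0.00464).

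Among the complex I genes called higher in 1 line, Ndufb2, a small membrane-arm subunit, was at 16.6, 11.9 and 12.6 FPM in control GM and 11.8, 10.9 and 10.2 in control DM3. It was at 14.7, 12.1 and 11.5 in MS GM, 13.4, 12.2 and 10.2 in MS DM3, 14.3, 12.8 and 11.8 in MG GM and 16.3, 18.6 and 16.5 in MG DM3. MG DM3 had the highest mean, above control DM3 with a log2 difference of 0.60 ± 0.14 (SE, limma adjusted p = 0.00328). The rise in MG had a log2 change of 0.38 ± 0.14 (SE, adjusted p = 0.0374), a call lost under no filter and in 5 of the 18 fits that left out 1 library (adjusted p up to 0.13). Ndufa6, an LYR-motif accessory subunit that binds the acyl carrier protein, was at 65.9, 59.7 and 56.0 FPM in control GM and 79, 86.1 and 83.1 in control DM3. MS and MG libraries held 44.3, 45.2 and 50.5 in MS GM, 47.1, 56.5 and 41.9 in MS DM3, 54.3, 64.3 and 60.2 in MG GM and 73.2, 75.2 and 65.3 in MG DM3. It rose in control with a log2 change of 0.45 ± 0.11 (SE, limma adjusted p = 0.00262), and MS DM3 lay below control DM3 with a log2 difference of -0.77 ± 0.11 (SE, adjusted p = 4.15e-05), the lowest complex I value of that comparison.

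**Figure D4:**
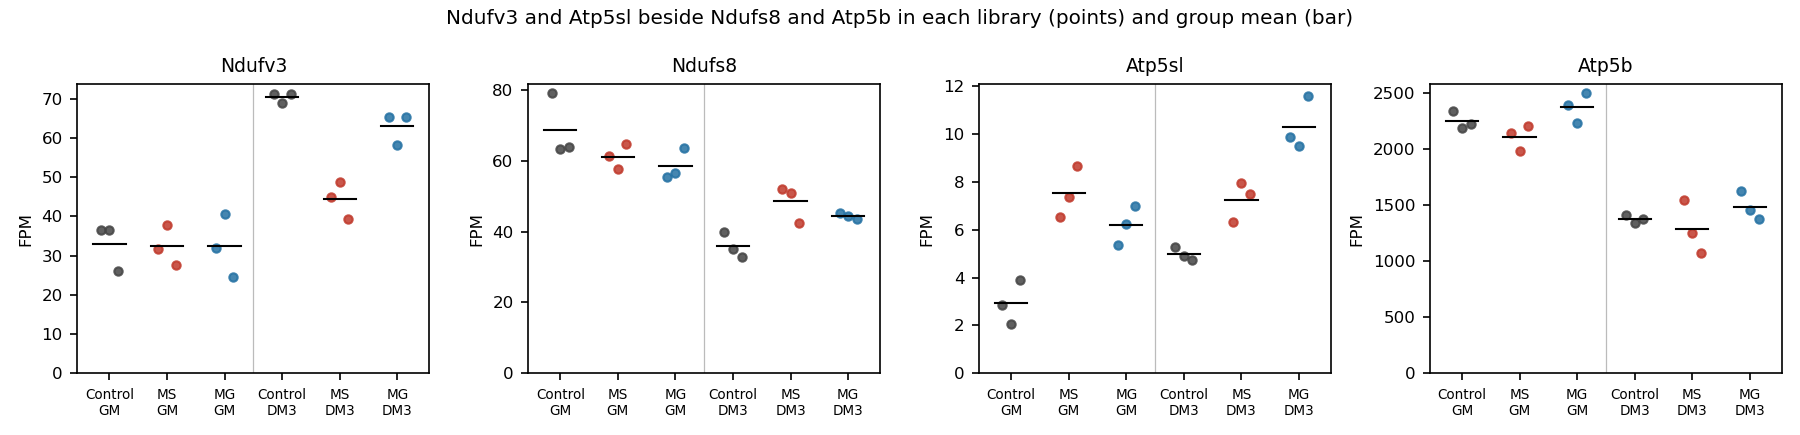
FPM per library of Ndufv3, Ndufs8, Atp5sl and Atp5b in the 6 groups (3 points each, group mean as a bar, axes from 0). Ndufv3 is higher in DM3 than in GM in each line, Atp5b and Ndufs8 are lower, and Atp5sl is lowest in control GM.

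Among the complex I genes that fell, Ndufb8, a membrane-arm subunit widely used as a blot marker of complex I, was at 88.5, 71.9 and 75.3 FPM in control GM and 56.6, 50.8 and 49.4 in control DM3. Its level was 68.04, 60.8 and 67.7 in MS GM, 53.0, 52.8 and 43.2 in MS DM3, 77.2, 76.7 and 81.2 in MG GM and 64.8, 59.5 and 55.4 in MG DM3. It fell without overlap with a log2 change of -0.58 ± 0.11 (SE, limma adjusted p = 0.000222) in control and -0.39 ± 0.11 (SE, adjusted p = 0.00614) in MG, and with -0.40 ± 0.11 (SE, adjusted p = 0.00824) in MS, a call lost under a fit of only the compared groups and without MS DM3 replicate 3 (adjusted p up to 0.054). Ndufb6, also of the membrane arm, was at 56.8, 44.8 and 44.0 FPM in control GM and 34.6, 32.2 and 28.6 in control DM3. In the other lines it stood at 50.6, 40.2 and 52.8 in MS GM, 35.9, 39.3 and 24.6 in MS DM3, 33.2, 36.1 and 31.6 in MG GM and 22.7, 23.1 and 19.8 in MG DM3. The gene fell with a log2 change of -0.59 ± 0.16 (SE, limma adjusted p = 0.00456) in control and -0.60 ± 0.16 (SE, adjusted p = 0.00483) in MG, and with -0.53 ± 0.16 (SE, adjusted p = 0.0167) in MS, a call lost under a fit of only the compared groups and without MS GM replicate 1, MS GM replicate 3 or MS DM3 replicate 3 (adjusted p up to 0.1). MG DM3 was the lowest group, and MS was above MG in DM3 with a log2 difference of 0.56 ± 0.16 (SE, limma adjusted p = 0.00905), a call lost without MS DM3 replicate 2 (adjusted p up to 0.054). Its reads are uncertain, since 31.6% of its words are shared.

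Ndufa5, an accessory subunit of the matrix arm, was at 60.4, 37.3 and 43.2 FPM in control GM and 27.5, 25.6 and 25.6 in control DM3. With MUNC overexpressed the values were 29.2, 21.6 and 27.6 in MS GM, 22.2, 20.8 and 16.4 in MS DM3, 41.3, 36.0 and 39.8 in MG GM and 28.9, 24.2 and 20.9 in MG DM3. MS GM lay wholly below control GM, at a log2 difference of -0.80 ± 0.17 (SE, limma adjusted p = 0.00164), and below MG GM with -0.57 ± 0.17 (SE, adjusted p = 0.015), a call lost without MS GM replicate 2 or MG GM replicate 1 (adjusted p up to 0.078). In DM3 it fell with a log2 change of -0.79 ± 0.17 (SE, limma adjusted p = 0.000827) in control and -0.65 ± 0.17 (SE, adjusted p = 0.00438) in MG, while MS groups overlapped at -0.38 ± 0.17 (SE, adjusted p = 0.0883). Ndufa13, also known as GRIM-19, was at 75.5, 57.5 and 53.6 FPM in control GM and 71.5, 76.2 and 74.2 in control DM3 and was called with differentiation in no line. It was at 64.9, 52.7 and 51.6 in MS GM, 52.9, 53.5 and 40.2 in MS DM3, 37.4, 43.5 and 35.4 in MG GM and 48.1, 45.5 and 43.6 in MG DM3. MG was low in both media, with a log2 difference of -0.66 ± 0.14 (SE, limma adjusted p = 0.00206) in GM and -0.68 ± 0.14 (SE, adjusted p = 0.000883) in DM3 against control, with 28.5% of its words shared with other genes. Ndufb9, another LYR-motif subunit, was at 182, 131 and 135 FPM in control GM and 156, 156 and 148 in control DM3. The overexpressing lines gave 144, 109 and 129.5 in MS GM, 105, 102 and 78.7 in MS DM3, 152, 138 and 150.2 in MG GM and 161, 142 and 128 in MG DM3. MS DM3 was the low group, at a log2 difference of -0.59 ± 0.14 (SE, limma adjusted p = 0.00278) against MG DM3 and -0.69 ± 0.14 (SE, adjusted p = 0.000915) against control DM3, with 15.6% of its words shared.

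Complex II, the only one with no mitochondrially encoded subunit, divided between its members. Its 4 genes gave 2 calls lower in each line. Sdhb, the iron-sulfur subunit, was at 114, 92.9 and 92.6 FPM in control GM and 85.8, 82.2 and 76.6 in control DM3. MS and MG libraries held 90.4, 82.7 and 93.3 in MS GM, 66.1, 63.1 and 54.8 in MS DM3, 87.8, 89.7 and 96.0 in MG GM and 71.8, 63.7 and 61.7 in MG DM3. It fell with a log2 change of -0.53 ± 0.10 (SE, limma adjusted p = 0.000962) in MS and -0.47 ± 0.10 (SE, adjusted p = 0.00127) in MG, and with -0.28 ± 0.10 (SE, adjusted p = 0.0265) in control, a call lost under a fit of only the compared groups and without control GM replicate 1, control DM3 replicate 2 or control DM3 replicate 3 (adjusted p up to 0.14). In DM3 MS was below control with a log2 difference of -0.41 ± 0.10 (SE, limma adjusted p = 0.00438), and MG with -0.31 ± 0.10 (SE, adjusted p = 0.0247), a call lost under quantile normalization and without control DM3 replicate 1, control DM3 replicate 2, MG DM3 replicate 2 or MG DM3 replicate 3 (adjusted p up to 0.092). Sdhd, a membrane anchor, was at 181, 134 and 162 FPM in control GM and 118, 114 and 111 in control DM3. Its level was 129, 96.1 and 130.4 in MS GM, 95.1, 90.6 and 71.5 in MS DM3, 145, 115 and 151 in MG GM and 111, 101 and 98.1 in MG DM3. It was lower in DM3 without overlap in each line: a log2 change of -0.46 ± 0.15 (SE, limma adjusted p = 0.0126) in control, a call lost without control GM replicate 1 (adjusted p up to 0.066); -0.46 ± 0.15 (SE, adjusted p = 0.0223) in MS, a call lost under a fit of only the compared groups and without MS GM replicate 1, MS GM replicate 3 or MS DM3 replicate 3 (adjusted p up to 0.12); and -0.39 ± 0.15 (SE, adjusted p = 0.0332) in MG, a call lost under no filter and without MG GM replicate 1, MG GM replicate 3, MG DM3 replicate 2 or MG DM3 replicate 3 (adjusted p up to 0.13). MS was also below control in GM, with a log2 difference of -0.43 ± 0.15 (SE, limma adjusted p = 0.0321), a call lost under 5 alternatives and without control GM replicate 1, control GM replicate 3 or MS GM replicate 2 (adjusted p up to 0.17), and in DM3 with -0.42 ± 0.15 (SE, adjusted p = 0.0274), a call lost without control DM3 replicate 1, control DM3 replicate 2, control DM3 replicate 3 or MS DM3 replicate 3 (adjusted p up to 0.13). Sdha, the catalytic flavoprotein, was at 286, 309 and 273 FPM in control GM and 275, 280.3 and 290.4 in control DM3, with the groups overlapping. In the other lines it stood at 258, 260.5 and 239 in MS GM, 239, 232 and 229 in MS DM3, 300.3, 299 and 268 in MG GM and 287, 274 and 275 in MG DM3. It was called in no line, with a log2 change of -0.04 ± 0.08 (SE, limma adjusted p = 0.717) in control, -0.11 ± 0.08 (SE, adjusted p = 0.281) in MS and -0.05 ± 0.08 (SE, adjusted p = 0.618) in MG. In DM3, MS was below control with a log2 difference of -0.27 ± 0.08 (SE, limma adjusted p = 0.011) and below MG with -0.26 ± 0.08 (SE, adjusted p = 0.0155), a call lost without MG DM3 replicate 1 (adjusted p up to 0.055).

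Complex III, which hands electrons to cytochrome c, summed over its 8 nuclear genes to a mean of 972 FPM in control GM and 741 in control DM3. In control 5 were called lower, in MS 7 and in MG 3, and none was called higher. Uqcrc1, a core protein on the matrix side (chr9:108936633-108949623, plus strand), was at 238, 208 and 242 FPM in control GM and 164, 161 and 177 in control DM3. With MUNC overexpressed the values were 156, 147 and 184 in MS GM, 110.3, 103 and 90.02 in MS DM3, 186, 179 and 226 in MG GM and 147, 137 and 140.3 in MG DM3. Every DM3 library was below every GM library of its line, with a log2 change of -0.45 ± 0.11 (SE, limma adjusted p = 0.00273) in control, -0.68 ± 0.11 (SE, adjusted p = 0.000295) in MS and -0.47 ± 0.11 (SE, adjusted p = 0.0025) in MG. MS was also below control in both media, with a log2 difference of -0.50 ± 0.11 (SE, limma adjusted p = 0.00265) in GM and -0.73 ± 0.11 (SE, adjusted p = 7.37e-05) in DM3.

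Uqcrc2, the second core protein and a common blot marker of the complex, was at 201, 191 and 187 FPM in control GM and 161, 160.4 and 167 in control DM3. It was at 151, 157 and 159 in MS GM, 135, 124 and 108 in MS DM3, 185, 184 and 184 in MG GM and 172, 159 and 156 in MG DM3. Its level fell with a log2 change of -0.24 ± 0.08 (SE, limma adjusted p = 0.0194) in control, a call lost without control GM replicate 1 or control DM3 replicate 2 (adjusted p up to 0.063), and -0.35 ± 0.08 (SE, adjusted p = 0.0044) in MS, a call lost under a fit of only the compared groups. In MG the value was a log2 change of -0.18 ± 0.08 (SE, limma adjusted p = 0.0777). MS DM3 lay below control DM3 with a log2 difference of -0.41 ± 0.08 (SE, adjusted p = 0.000859) and below MG DM3 with -0.41 ± 0.08 (SE, adjusted p = 0.000848). About 17.6% of its words are shared. Uqcrq, a small subunit near cytochrome b, was at 98.1, 85.5 and 87.5 FPM in control GM and 56.7, 55.5 and 47.2 in control DM3. The overexpressing lines gave 82.1, 72.5 and 91.3 in MS GM, 66.0, 62.2 and 51.2 in MS DM3, 71.7, 87.2 and 98.0 in MG GM and 58.7, 64.2 and 57.2 in MG DM3. It fell with a log2 change of -0.76 ± 0.13 (SE, limma adjusted p = 0.000113) in control and -0.50 ± 0.13 (SE, adjusted p = 0.00435) in MG without overlap, and with -0.45 ± 0.13 (SE, adjusted p = 0.0126) in MS, a call lost under a fit of only the compared groups and without MS GM replicate 3 or MS DM3 replicate 3 (adjusted p up to 0.075). Uqcr11, a small membrane subunit, was at 66.3, 47.2 and 53.5 FPM in control GM and 37.0, 36.0 and 38.8 in control DM3. MS and MG libraries held 71.7, 58.1 and 68.5 in MS GM, 48.8, 44.4 and 30.2 in MS DM3, 67.2, 69.2 and 67.7 in MG GM and 58.6, 58.9 and 55.2 in MG DM3. It fell in control with a log2 change of -0.55 ± 0.15 (SE, limma adjusted p = 0.00467) and in MS with -0.69 ± 0.15 (SE, adjusted p = 0.00207), while MG DM3 was above control DM3 with a log2 difference of 0.61 ± 0.15 (SE, adjusted p = 0.00356). Uqcrh, the hinge protein, was at 183, 116 and 127 FPM in control GM and 145, 124 and 121 in control DM3. Its level was 200.3, 160 and 174 in MS GM, 149, 129.5 and 111 in MS DM3, 135, 118 and 109 in MG GM and 155, 121 and 112 in MG DM3. The MS GM libraries were above the MG GM libraries, with a log2 difference of 0.56 ± 0.17 (SE, limma adjusted p = 0.0167), a call lost without MS GM replicate 1 or MG GM replicate 3 (adjusted p up to 0.072).

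Complex IV, the oxygen-reducing end of the chain, has general and tissue isoforms. Its 12 general subunits had a median of -0.31 in control (5 lower), -0.51 in MS (9 lower) and -0.19 in MG (2 lower), with none called higher. The MG count was below the share of all tested genes called lower there, 25.1%. The general isoform held nearly all reads of every pair. Cox4i1 was at 273, 192 and 207 FPM in control GM and 202, 179 and 175 in control DM3, with the groups overlapping. In the other lines it stood at 264, 224 and 257 in MS GM, 196, 186 and 154 in MS DM3, 174, 182 and 185 in MG GM and 189, 178 and 168 in MG DM3. It fell in MS with a log2 change of -0.48 ± 0.13 (SE, limma adjusted p = 0.00767), a call lost without MS DM3 replicate 3 (adjusted p up to 0.05), against -0.26 ± 0.13 (SE, adjusted p = 0.0843) in control and -0.01 ± 0.13 (SE, adjusted p = 0.943) in MG. Its partner Cox4i2, the hypoxia-linked form of lung, did not pass the filter.

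Cox6a1, the general form of subunit 6A, was at 114, 78.3 and 90.7 FPM in control GM and 72.2, 76.2 and 77.0 in control DM3. With MUNC overexpressed the values were 138, 116 and 131 in MS GM, 83.7, 80.5 and 62.6 in MS DM3, 86.8, 94.2 and 96.3 in MG GM and 89.1, 82.9 and 79.4 in MG DM3. MS GM was the highest group, above MG GM with a log2 difference of 0.47 ± 0.13 (SE, limma adjusted p = 0.00967) and above control GM with 0.46 ± 0.13 (SE, adjusted p = 0.0118), a call lost under a fit of only the compared groups and without control GM replicate 2 (adjusted p up to 0.063). From there it fell in MS with a log2 change of -0.76 ± 0.13 (SE, limma adjusted p = 0.000342), the lowest value of complex IV in that line, against -0.31 ± 0.13 (SE, adjusted p = 0.0508) in control. The heart and skeletal muscle form, Cox6a2 (chr7:128205435-128206387, minus strand), was at 0.273, 1.504 and 0.476 FPM in control GM and 1.46, 0.276 and 0.387 in control DM3. It was at 0, 0.348 and 0.397 in MS GM, 5.37, 1.15 and 2.53 in MS DM3, 0.0143, 0.27 and 0.126 in MG GM and 0.317, 0.151 and 0.156 in MG DM3. All 3 MS DM3 libraries were above all MS GM libraries, while control libraries overlapped. Control GM replicate 2 and control DM3 replicate 1 were the only other libraries at the filter level of 0.5 FPM or more. Cox6a2 thus passed the filter through MS DM3, its highest group, and its p-values are not independent of that. It rose in MS with a log2 change of 1.56 ± 0.33 (SE, limma adjusted p = 0.00177), and MS DM3 exceeded MG DM3 with a log2 difference of 1.60 ± 0.33 (SE, adjusted p = 0.000886). Against control DM3 the groups overlapped, at 1.16 ± 0.33 (SE, adjusted p = 0.00938), a call lost under a fit of only the compared groups and edgeR and without MS DM3 replicate 1 (adjusted p up to 0.057). The interaction with the control change was a log2 difference of 1.60 ± 0.46 (SE, limma adjusted p = 0.0319), a call lost under 3 alternatives and in 6 of the 18 fits that left out 1 library (adjusted p up to 0.086). Its FPM came to 6.42%, 1.43% and 4.05% of the FPM of Cox6a1 in MS DM3 and a mean of 0.962% in control DM3. Myog was highest in the same MS DM3 replicate 1, at 225.9 FPM against 52.6 and 41.0, and its part in the Cox6a2 value was not tested.

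Cox7a1, the heart and muscle form of subunit 7A (chr7:30184144-30186078, plus strand), was called between lines and not between media. It was at 0.358, 0.266 and 0.353 FPM in control GM and 0.25, 0.276 and 0.461 in control DM3. The overexpressing lines gave 0.202, 0.183 and 0.234 in MS GM, 0.247, 0.122 and 0.362 in MS DM3, 1.29, 1.49 and 1.13 in MG GM and 2.06, 1.75 and 1.37 in MG DM3. All 6 MG libraries were above all 12 others. Only MG libraries reached the filter level of 0.5 FPM. Cox7a1 thus passed the filter through the line where it was high, and its p-values are not independent of that. MG exceeded control with a log2 difference of 0.79 ± 0.11 (SE, limma adjusted p = 4.51e-05) in GM and 1.03 ± 0.11 (SE, adjusted p = 1.3e-06) in DM3, and MS was below MG with -0.93 ± 0.11 (SE, adjusted p = 5.93e-06) and -1.13 ± 0.11 (SE, adjusted p = 4.01e-07). Differentiation gave a log2 change of 0.00 ± 0.11 (SE, adjusted p = 0.999) in control and 0.24 ± 0.11 (SE, adjusted p = 0.0822) in MG. Its FPM came to 2.48% ± 0.486 (SD, n = 3) of the FPM of Cox7a2 in MG DM3, against 0.561% in control DM3. The adipocyte list was also highest in MG, at a summed 12.6 to 18 FPM in MG GM and 5.46 to 10.2 in MG DM3 against at most 3.42 in other groups. Adipoq, which defines adipocytes, stayed at or below 0.0505 FPM, while Lpl alone was at 12.6 to 17.3 FPM in MG GM. The 3 endothelial genes summed to 7.1 to 7.36 FPM in MG GM and 3.89 to 4.99 in MG DM3, against at most 0.602 in other groups, and most of that was Cdh5. The myoblast list summed to 386 to 684 FPM in MG GM, against at most 321 in MS GM and 163 in control GM. In DM3 it was 985 to 1155 in MG, against at most 550 in MS and 288 in control. The part of these lists in the Cox7a1 values was not tested. The general form Cox7a2 was at 102, 73.4 and 84.99 FPM in control GM and 59.4, 60.4 and 57.3 in control DM3. MS and MG libraries held 83.3, 67.0 and 83.2 in MS GM, 56.6, 54.9 and 40.5 in MS DM3, 81.5, 83.6 and 86.6 in MG GM and 68.7, 72.0 and 67.3 in MG DM3. It fell in control with a log2 change of -0.54 ± 0.13 (SE, limma adjusted p = 0.00239) and in MS with -0.62 ± 0.13 (SE, adjusted p = 0.00191), and was -0.27 ± 0.13 (SE, adjusted p = 0.095) in MG. Cox7a2l, a relative that joins complexes III and IV into supercomplexes, was at 122, 94.7 and 85.9 FPM in control GM and 136, 106 and 99.0 in control DM3. Its level was 96.8, 89.3 and 89.3 in MS GM, 97.6, 89.8 and 83.6 in MS DM3, 77.7, 74.8 and 71.8 in MG GM and 105, 75.1 and 70.0 in MG DM3, with no differentiation call in any line and a log2 change of 0.18 ± 0.15 (SE, limma adjusted p = 0.343) in control.

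Cox7b2, a form of subunit 7B known from testis (chr5:71442824-71548205, minus strand), separated the lines most. It was at 0, 0.0885 and 0.0615 FPM in control GM and 0.0192, 0 and 0 in control DM3. In the other lines it stood at 4.79, 4.20 and 3.44 in MS GM, 3.53, 4.76 and 2.17 in MS DM3, 1.23, 1.35 and 0.609 in MG GM and 1.03, 1.08 and 0.429 in MG DM3. Control libraries were at or near 0, MG libraries were between 0.429 and 1.35 FPM, and MS libraries were all above 2. No control library reached the filter level of 0.5 FPM. Cox7b2 thus passed the filter through the lines where it was high, and its p-values are not independent of that. On the log2(FPM + 1) scale MS was above control with a log2 difference of 2.29 ± 0.20 (SE, limma adjusted p = 2.4e-07) in GM and 2.11 ± 0.20 (SE, adjusted p = 4.29e-07) in DM3. MG was above control with a log2 difference of 0.96 ± 0.20 (SE, limma adjusted p = 0.00188) and 0.86 ± 0.20 (SE, adjusted p = 0.00254), and MS was above MG with 1.33 ± 0.20 (SE, adjusted p = 7.1e-05) and 1.26 ± 0.20 (SE, adjusted p = 7.73e-05). The added 1 FPM makes these smaller than the change in reads: the authors' deposited table gives 6.37 ± 0.57 for MS against control in GM. Differentiation gave a log2 change of -0.06 ± 0.20 (SE, limma adjusted p = 0.818) in control, -0.23 ± 0.20 (SE, adjusted p = 0.382) in MS and -0.16 ± 0.20 (SE, adjusted p = 0.527) in MG, none of them called. The FPM of Cox7b2 came to 2.98% ± 0.366 (SD, n = 3) of that of Cox7b in MS GM. It shares no 50-base word with another gene. The general form Cox7b was at 166, 134 and 131 FPM in control GM and 111, 106 and 95.3 in control DM3. With MUNC overexpressed the values were 149.8, 132 and 135 in MS GM, 124, 118 and 87.4 in MS DM3, 135, 143 and 133 in MG GM and 128, 133 and 110.5 in MG DM3. It fell in control with a log2 change of -0.46 ± 0.13 (SE, limma adjusted p = 0.00588) and in MS with -0.35 ± 0.13 (SE, adjusted p = 0.0431), a call lost under 4 alternatives and in 7 of the 18 fits that left out 1 library (adjusted p up to 0.24).

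Of the other complex IV genes, Ndufa4 was at 248, 191 and 183 FPM in control GM and 146, 138 and 122 in control DM3. It was at 169.6, 137 and 126 in MS GM, 114, 98.7 and 65.9 in MS DM3, 205, 217 and 174 in MG GM and 160, 136 and 110.4 in MG DM3. It was lower in DM3 without overlap in each line: a log2 change of -0.61 ± 0.19 (SE, limma adjusted p = 0.0112) in control, a call lost without control GM replicate 1 (adjusted p up to 0.062); -0.66 ± 0.19 (SE, adjusted p = 0.0128) in MS, a call lost under a fit of only the compared groups and without MS GM replicate 1 or MS DM3 replicate 3 (adjusted p up to 0.083); and -0.56 ± 0.19 (SE, adjusted p = 0.0196) in MG, a call lost without MG GM replicate 1, MG GM replicate 2 or MG DM3 replicate 3 (adjusted p up to 0.1). Cox5a, a matrix-side subunit, was at 102, 81.5 and 97.3 FPM in control GM and 65.7, 62.3 and 63.0 in control DM3. It was at 72.4, 52.0 and 76.3 in MS GM, 45.8, 39.9 and 34.8 in MS DM3, 70.3, 61.4 and 81.6 in MG GM and 65.4, 55.6 and 60.0 in MG DM3. MS DM3 was the lowest group, at a log2 difference of -0.66 ± 0.15 (SE, limma adjusted p = 0.0017) against control DM3 and -0.58 ± 0.15 (SE, adjusted p = 0.00405) against MG DM3, after falling with a log2 change of -0.54 ± 0.15 (SE, adjusted p = 0.00467) in control and -0.71 ± 0.15 (SE, adjusted p = 0.00146) in MS. Cox6b1, on the outer side, was at 173, 117 and 141 FPM in control GM and 114, 111 and 115 in control DM3. It was at 136, 109 and 127 in MS GM, 91.0, 87.2 and 72.8 in MS DM3, 127, 122 and 132 in MG GM and 117, 102 and 99.8 in MG DM3. It fell in MS with a log2 change of -0.56 ± 0.13 (SE, limma adjusted p = 0.00294) and in control with -0.32 ± 0.13 (SE, adjusted p = 0.0422), a call lost under 5 alternatives and in 7 of the 18 fits that left out 1 library (adjusted p up to 0.24). Cox8a was at 129, 130.2 and 146 FPM in control GM and 120, 149.9 and 168 in control DM3, and the groups overlapped. Its level was 137, 133 and 162 in MS GM, 114, 119.8 and 97.4 in MS DM3, 105, 137 and 141 in MG GM and 108, 129 and 130.4 in MG DM3. It gave a log2 change of 0.10 ± 0.14 (SE, limma adjusted p = 0.571) in control and -0.38 ± 0.14 (SE, adjusted p = 0.0457) in MS, a call lost under 4 alternatives and in 10 of the 18 fits that left out 1 library (adjusted p up to 0.19).

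The lines were next compared within each medium. These comparisons share the control or the MS and MG libraries with one another and with the differentiation contrasts, so their values are given side by side and not as independent evidence. In GM, MS against control had 15 members lower and 3 higher (17.3% of all tested genes lower, 18.2% higher), with a median of -0.14 against -0.02 for all genes. This split turned with the scaling: 6 lower and 9 higher with equal sums per library, and 8 and 8 after quantile normalization. With the replicate number as a block the count was 23 lower and 7 higher. Without MS GM replicate 2 the 18 calls became 11. MG against control in GM had 10 lower and 3 higher (14.5% and 12.2%), with a median of -0.09, and the 13 calls became 7 without control GM replicate 1 and 8 without MG GM replicate 1.

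In DM3 MS and MG gave different splits against control. MS against control had 22 members lower and 7 higher (21% of all tested genes lower, 22.3% higher), with a median of -0.10. Without MS DM3 replicate 3 the lower calls were 13, and the higher calls were 4 without control DM3 replicate 2 or 3 or MS DM3 replicate 1 or 2. The median lay between -0.17 and -0.04 over the left-out libraries. Complex II and complex III each had 3 genes lower and none higher, and complex I had 7 lower and 3 higher. MG against control had 9 lower and 12 higher (20.9% and 19.3%), with a median of 0.01, and the 21 calls became 13 without MG DM3 replicate 2. Its higher calls were 7 without MG DM3 replicate 1, and its lower calls were 4 without control DM3 replicate 1 or MG DM3 replicate 3 and 5 without MG DM3 replicate 2. Set against each other in DM3, MS had 24 members lower and 3 higher than MG (20.8% and 23.4% of all tested genes), with a median of -0.16 against 0.03. Without MS DM3 replicate 3 this became 12 lower and 6 higher, and without MG DM3 replicate 1 the lower calls were 15. The median lay between -0.22 and -0.02 over the left-out libraries. The direct MS to MG comparison in GM gave 11 higher and 6 lower (19.9% and 16%), 15 and 13 with the replicate block, and 11 and 3 with equal sums. Its 17 calls became 9 without MS GM replicate 1, 10 without MG GM replicate 1 and 11 without MG GM replicate 3, and its lower calls were 2 without MS GM replicate 2, 11 in edgeR and 12 in DESeq2. The authors' deposited tables of the line contrasts have 17 members lower and 5 higher for MS against control in DM3 (16% of genes lower) and 11 lower and 17 higher for MG (20.3% lower). Their shares of all genes called higher are not given here, so the higher counts stand without a comparison.

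Neighbouring parts of the same pathway were read from lists of genes that do not meet the symbol rule. Calls of the listed genes, here and for the regulators below, were not checked under the alternatives. The listed genes named were picked by no set rule, and their values are not given for every line. Of all tested genes, 28.6% were called lower in control, 18.4% in MS and 25.1% in MG. In control cells 20 of 40 tested assembly factors were called lower in DM3 and 3 higher, with a median of -0.38. Their summed level was 1187 to 1337 FPM in control GM and 967 to 1081 in control DM3. It overlapped between media in MS (1066 to 1210 in GM, 991 to 1114 in DM3) and MG (1029 to 1163, 983 to 1064). Of 22 genes that transcribe, replicate or process mitochondrial DNA and RNA, 17 were called lower in control and none higher, with a median of -0.68. In MS the same list had 3 lower and 1 higher (median -0.15), below the share of all tested genes, and in MG 11 lower and none higher (median -0.33). Of 17 citric acid cycle genes 13 were lower in control, 10 in MS and 10 in MG, and none was higher. Lrpprc, which stabilises mitochondrial messenger RNA, fell with a log2 change of -0.77 ± 0.14 (SE, limma adjusted p = 0.000191) in control. Acad9, a complex I assembly factor, fell with a log2 change of -1.01 ± 0.12 (SE, limma adjusted p = 3.52e-06), and Cs, citrate synthase, with -0.45 ± 0.10 (SE, adjusted p = 0.00103). Cytochrome c itself (Cycs) was at 126, 103 and 134 FPM in control GM and 50.2, 51.5 and 45.5 in control DM3. It fell with a log2 change of -1.28 ± 0.20 (SE, limma adjusted p = 5.98e-05) in control and -1.70 ± 0.20 (SE, adjusted p = 6.39e-06) in MG. Cyc1, the cytochrome c1 of complex III that the symbol rule leaves out, fell with a log2 change of -0.77 ± 0.15 (SE, limma adjusted p = 0.000489). Higd2a, a complex IV factor, went up with 0.78 ± 0.11 (SE, adjusted p = 2.91e-05) in control and 0.89 ± 0.11 (SE, adjusted p = 1.21e-05) in MG.

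Regulators of the pathway did not share 1 direction: of 14 tested, 5 were called lower and 2 higher in control, against 28.6% and 29.6% of all tested genes. Ppargc1a, the coactivator PGC-1 alpha that drives mitochondrial biogenesis, was at 0.666, 0.92 and 0.446 FPM in control GM and 13.9, 10.5 and 11.9 in control DM3. It was at 0.228, 0.139 and 0.127 in MS DM3 and listed at 0 in all 3 MG DM3 libraries. Control DM3 thus stood far above every other group. On the log2(FPM + 1) scale it had a log2 change of 2.97 ± 0.11 (SE, limma adjusted p = 9.02e-11) for control DM3 against GM, a log2 difference of -3.48 ± 0.11 (SE, adjusted p = 1.39e-12) for MS against control in DM3 and -3.70 ± 0.11 (SE, adjusted p = 1.75e-13) for MG. Nrf1, the factor whose word was counted above, was at 51.9, 54.6 and 60.0 in control GM and 28.5, 31.6 and 32.5 in control DM3. It fell with a log2 change of -0.83 ± 0.10 (SE, limma adjusted p = 5.71e-06) in control, -0.40 ± 0.10 (SE, adjusted p = 0.00632) in MS and -0.50 ± 0.10 (SE, adjusted p = 0.000743) in MG. Tfam, which packages and transcribes mitochondrial DNA, was at 90.7, 74.2 and 77.7 in control GM and 63.0, 54.9 and 49.6 in control DM3. It fell with a log2 change of -0.53 ± 0.12 (SE, limma adjusted p = 0.00112) in control, and was -0.07 ± 0.12 (SE, adjusted p = 0.686) in MS. Gabpa had a log2 change of -0.13 ± 0.14 (SE, limma adjusted p = 0.431) for control DM3 against GM, and was higher in MS than control in DM3 with a log2 difference of 0.88 ± 0.14 (SE, adjusted p = 8.38e-05). The subunit genes were mostly lower in control DM3, the group where Ppargc1a was highest and where Nrf1 and Tfam were lower. Their summed level had a mean of 8238 FPM there, 7135 in MS DM3 and 8158 in MG DM3. Ppargc1a was at most 0.228 FPM in the MS and MG DM3 libraries. The part of these regulators was not tested.

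**Figure D5:**
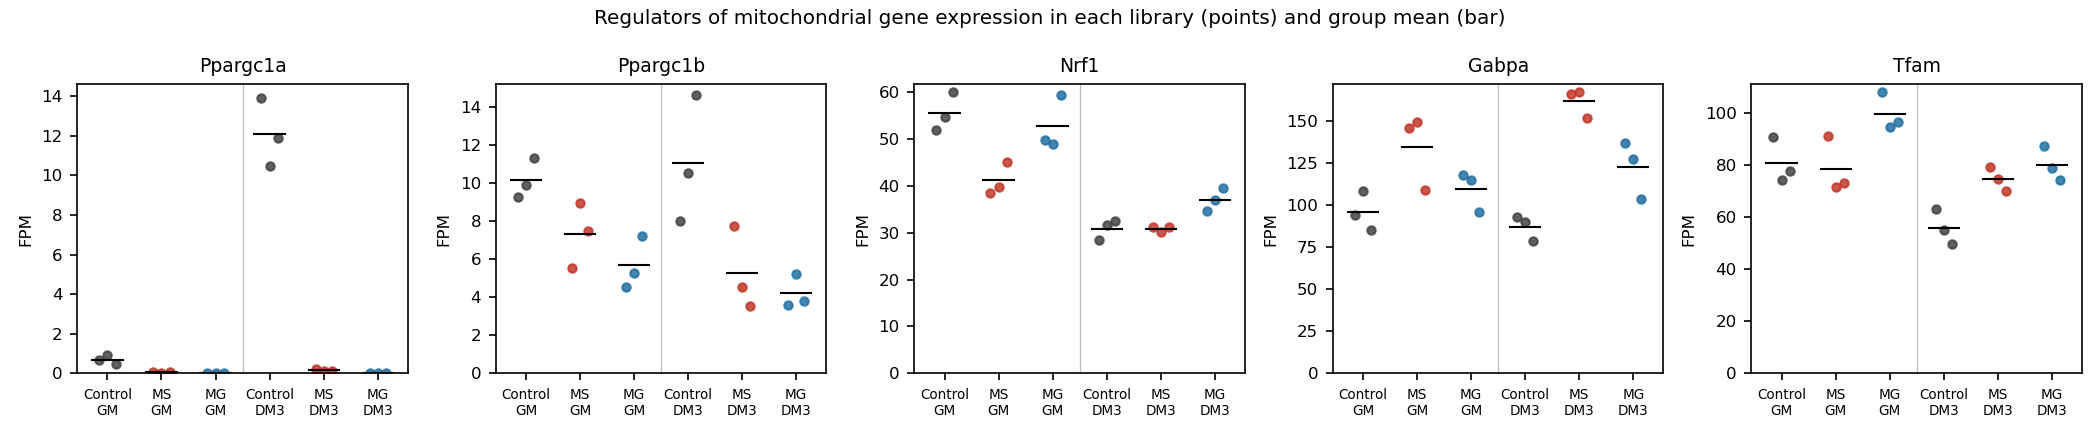
FPM per library of 5 regulators of mitochondrial genes (Ppargc1a, Ppargc1b, Nrf1, Gabpa, Tfam) in the 6 groups, 3 points each with the group mean as a bar. Ppargc1a is between 10.5 and 13.9 FPM in control DM3 and below 1 in all other groups.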

How the data were processed

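Poly(A) RNA of 18 C2C12 libraries (3 labelled biological replicates in each of 6 groups) was sequenced on a HiSeq 2500, per the labels' protocols. The submitters' processing notes name STAR, HTSeq, DESeq2 and mm10; versions, the annotation and strand use are not given in the sources used here. The authors deposited 1 signal value per gene and library, headed FPM: reads per gene over a size factor. For 100.0% of values, multiples of a library's step gave whole reads within 0.1 read, and these reads served only the count tests and depths. The authors' deposited tables also hold log2 fold changes and adjusted p-values of 5 contrasts, quoted only where named.

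The members and lists were chosen with earlier results of these data known. Genes with at least 0.5 FPM in 3 libraries (13869) were fitted as log2(FPM + 1) with limma 3.58.1 (R 4.3.3, moderated variances with a trend), all 18 libraries in 1 fit, and p-values were adjusted by Benjamini-Hochberg over all genes in each of 11 comparisons. A fold or log2 change is on that scale and understates the change of low genes. Members are called at an adjusted p under 0.05, and no p is given for sums or lists. Values in every library are given for the mitochondrial genes, the isoform pairs, 1 marker of each complex, and the highest and lowest called, non-overlapping member of each complex and comparison; Atp5b, Ndufa6, Atp5s and Atp5sl were added after their values were seen. The counts include 1 complex I member whose values are not reported here. Alternatives were pseudocounts of 0.1 and 0.5, no filter, 5 FPM, equal sums with and without mitochondrial genes, quantile normalization, the replicate number as a block, only the compared groups, edgeR 4.0.16 (TMM) and DESeq2 1.42.0 on whole reads, and leaving out each library. Equal sums with and without mitochondrial genes are the same fit, since those genes were listed at 0. A count of alternatives holds that fit under both names. The labels number replicates 1 to 3 in every group and do not say what the number marks. Same-numbered deviations from group means correlated at over 0.1 for all 3 pairs in 6 of 9 comparisons (r of 0.50 to 0.71 for MS against control in GM). In 26 of 27 pairs the same-numbered library of the other group correlated best. The fit was tested on simulated data. Coordinates and shared 50-base words come from GENCODE M21 (GRCm38), which held 97.8% of the gene identifiers; promoters come from RefSeq. Python 3.11.15, numpy 2.4.6, pandas 2.3.3 and matplotlib 3.10.9 were used. All sample columns were used.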

Additional observations from a re-analysis of the deposited data

Results flagged for a closer look

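For 3 members the change with differentiation differed between an overexpressing line and control cells by an interaction test in limma. Ndufs8 fell less in MS than in control, with a difference of 0.58 ± 0.16 in log2 change (SE, limma adjusted p = 0.0232), and less in MG, with 0.52 ± 0.16 (limma adjusted p = 0.0483). In each line every DM3 library lay below every GM library, so these are differences in size. Leaving out 1 library gave 0.48 to 0.67 for MS and 0.42 to 0.60 for MG, and the call was lost in 5 and 13 of the 18 such fits. Cox6a2 rose in MS and not detectably in control, with a difference of 1.6 ± 0.46 (limma adjusted p = 0.0319), between 1.20 and 1.98 with 1 library left out. Cox6a2 passed the filter only through MS DM3, its highest group. Atp5g3 fell in control and not detectably in MG, with a difference of 0.77 ± 0.22 (limma adjusted p = 0.0369), between 0.62 and 0.89 with 1 library left out. Of all tested genes, 14.4% passed the MS interaction and 8.81% the MG interaction, and 2 of the 79 members passed each, or 11 and 4 with the replicate number as a block.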

How the results depend on the processing

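Of 253 calls of a member in a comparison, 125 were kept under every alternative and every left-out library, and none changed direction. A fit of only the compared groups lost 68, edgeR 15, DESeq2 9 and the replicate block 0. Depth did not limit members above a few FPM, while control Cox7b2 lay near the 3-read floor.

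The counts of called members that moved over 1.5 times were as follows. With only the compared groups the count was 18 for MS DM3 against GM (44), 7 for MS against control in GM (18), 8 for MG against control in GM (13), 0 for the MS interaction (2) and 1 for the MG interaction (2). With the replicate block, as a pairing by number, it was 30 for MS against control in GM, 28 for MS against MG in GM (17), 11 for the MS interaction and 4 for the MG interaction. The MS interaction count was 1 without a filter, at 5 FPM and in edgeR. The MG interaction count was 0 without a filter and 1 with a pseudocount of 0.1, at 5 FPM and in edgeR. It was also 1 with equal sums, with or without mitochondrial genes, which is the same fit. The causes were not tested, except that a fit of fewer groups holds fewer libraries.

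Leaving out each library in turn, the count ranged from 36 to 51 for control DM3 against GM (47), 21 to 51 for MS, 20 to 37 for MG (33), 11 to 20 for MS against control in GM, 7 to 17 for MG against control in GM, 21 to 31 for MS against control in DM3 (29), 13 to 21 for MG against control in DM3 (21), 9 to 20 for MS against MG in GM and 18 to 28 in DM3 (27), 0 to 4 for the MS interaction and 0 to 3 for the MG interaction.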

Other observations

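Nuclear-annotated copies of the mitochondrial genes held reads where the mitochondrial genes were listed at 0. The 9 copies read here summed to 80.9, 76.8 and 47.2 FPM in control GM and 44, 56.4 and 48.6 in control DM3. They summed to 54.2, 67.1 and 48.6 in MS GM, 47.9, 51.9 and 45.5 in MS DM3, 50.2, 69.5 and 50.3 in MG GM, and 46, 69.5 and 51.4 in MG DM3. The copies did not share 1 direction. Gm28438, named after its values were seen as the copy with the highest level, which holds 98% of the 50-base words of mt-Nd3, was at 44, 32.1 and 21.6 FPM in control GM and 16.7, 13.2 and 11.9 in control DM3. It was at 26.6, 27.4 and 21.3 in MS GM, 18.4, 14.5 and 12.4 in MS DM3, 19.3, 24.9 and 21.1 in MG GM, and 15.5, 12.6 and 10.8 in MG DM3. Each DM3 library was below each GM library of its own line. Gm13340, which holds 27.5% of the words of mt-Co1, went the other way, at 4.2, 8.46 and 4.5 FPM in control GM and 7.24, 13.7 and 12.3 in control DM3, and its groups overlapped. Gm29216, with 28.7% of the words of mt-Co1, had a mean of 2.09 ± 0.757 FPM (SD, n = 3) in control GM and 3.58 ± 1.42 in control DM3. Reads of such a copy and of its mitochondrial source cannot be told apart.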
